A study of Mus musculus with 26 samples.

Results

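K4-K27 reChIP was compared between E14 mouse embryonic stem cells and WT clones 57 and 58, which are clonal lines of the same E14 cells, over all 24540 regions of the E14 K4-K27 set, with no measured difference entering the choice. Of these regions, 507 lie on chromosome 14 between 40 and 90 Mb and are set apart below, and 24033 lie elsewhere. The comparison rests on 4 of the series' 26 libraries: E14 R1 and E14 R2, which are non-clonal WT cultures sequenced in batches A and B, and WT clones 57 and 58, each a single clone, sequenced together in batch C. All were grown without feeders on gelatin in serum/LIF medium, and 10% of the first ChIP was kept as the in-line total. The genotype of all 4 is WT. Batch and group cannot be told apart here, since no batch holds libraries of both groups. The regions were listed for E14 cells, so a region enriched only in the clones could not enter.

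In embryonic stem cells, many promoters of developmental genes carry H3K4me3, a mark of active and poised promoters laid down by Trithorax-related enzymes, together with H3K27me3, the repressive mark of Polycomb repressive complex 2. Such chromatin is called bivalent. In reChIP, chromatin pulled down with a first antibody is released and pulled down with a second, which is meant to recover fragments that carry both marks. Signal from the first pulldown can also carry through to the second, a known limit of the method. K4-K27 denotes immunoprecipitation of H3K4me3 and then of H3K27me3, and K27-K4 denotes the reverse order. The H3K4me3 antibody may also recognise some H3K4me2.

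Signal is given as log2 RPM per kb of region (RPM, reads scaled to library size), after subtraction of the library's median over all regions (centred value), so that 0 is the typical region of that library. E14 R1 held 9941714 reads, E14 R2 34441552, clone 57 9242970 and clone 58 10727499. The median region held 29 reads in E14 R1, 225 in E14 R2, 79 in clone 57 and 68 in clone 58. No read fell in 40 regions of E14 R1 and in 0 of E14 R2, compared with 1530 regions of clone 57 and 698 of clone 58, and 349 regions were empty in both clones. The centred values spread least in E14 R2 (SD 0.711 over regions) and most in clone 57 (SD 1.84), with E14 R1 at 1.07 and clone 58 at 1.44. All 8 markers of pluripotent cells had a region in the E14 total H3K4me3 set, as had 5 of 8 fibroblast markers and 6 of 8 extraembryonic endoderm markers, with Col3a1, S100a4, Postn, Sox17 and Lama1 lacking one.

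Sequences are given first for 3 of the regions with the smallest p among those higher in the clones and 3 among those higher in E14 cells, to show what kind of DNA they held. The examples higher in the clones are the promoter windows of Herc4 (chr10:63243547-63243846, plus strand), Kdm5b (chr1:134559928-134560227, plus strand) and Igf2bp2 (chr16:22163250-22163549, minus strand), each of 300 bases around a RefSeq start site (GRCm38.p6, the same assembly as the mm10 of the files). CG dinucleotides are in capitals.
Herc4: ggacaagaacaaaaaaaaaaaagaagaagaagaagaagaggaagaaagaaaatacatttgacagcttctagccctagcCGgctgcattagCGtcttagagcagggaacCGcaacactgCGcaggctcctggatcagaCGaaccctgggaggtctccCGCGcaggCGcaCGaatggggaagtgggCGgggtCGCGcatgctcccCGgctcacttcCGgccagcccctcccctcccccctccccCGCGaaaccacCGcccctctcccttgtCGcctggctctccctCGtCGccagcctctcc
Kdm5b: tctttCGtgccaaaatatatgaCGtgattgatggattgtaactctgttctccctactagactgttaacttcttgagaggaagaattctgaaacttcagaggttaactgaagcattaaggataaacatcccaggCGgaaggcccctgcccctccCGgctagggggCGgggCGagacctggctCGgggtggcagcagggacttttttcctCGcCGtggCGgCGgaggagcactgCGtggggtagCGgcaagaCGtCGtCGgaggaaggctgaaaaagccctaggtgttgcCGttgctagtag
Igf2bp2: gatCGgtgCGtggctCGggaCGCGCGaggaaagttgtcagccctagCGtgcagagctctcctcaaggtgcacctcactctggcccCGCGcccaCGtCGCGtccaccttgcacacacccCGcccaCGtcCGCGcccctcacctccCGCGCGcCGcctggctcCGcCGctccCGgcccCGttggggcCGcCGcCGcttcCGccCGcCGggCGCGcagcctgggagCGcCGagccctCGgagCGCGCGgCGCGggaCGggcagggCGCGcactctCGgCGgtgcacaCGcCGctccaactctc
The examples higher in E14 have no annotated start site within 1.5 kb. They are a region 350057 bases from an Hs3st5 start site (chr10:36156451-36156750) and one 36053 bases from a Foxp1 start site (chr6:99064351-99064650). The third is the central 300 bases of a region 6342 bases from a Zfp668 start site (chr7:127867201-127867500). All are on the plus strand. Whether these regions lie inside a gene was not assessed.
near Hs3st5: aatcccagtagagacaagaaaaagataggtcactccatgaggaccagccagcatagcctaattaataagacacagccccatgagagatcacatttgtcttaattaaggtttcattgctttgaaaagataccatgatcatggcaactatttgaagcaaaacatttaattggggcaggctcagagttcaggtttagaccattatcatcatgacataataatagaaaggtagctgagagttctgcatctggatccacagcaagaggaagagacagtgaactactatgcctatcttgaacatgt
near Foxp1: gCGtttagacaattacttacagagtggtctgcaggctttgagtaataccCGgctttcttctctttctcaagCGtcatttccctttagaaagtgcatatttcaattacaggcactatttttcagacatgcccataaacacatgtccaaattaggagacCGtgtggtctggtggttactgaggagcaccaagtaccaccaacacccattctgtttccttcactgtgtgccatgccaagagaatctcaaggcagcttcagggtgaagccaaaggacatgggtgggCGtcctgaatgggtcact
near Zfp668: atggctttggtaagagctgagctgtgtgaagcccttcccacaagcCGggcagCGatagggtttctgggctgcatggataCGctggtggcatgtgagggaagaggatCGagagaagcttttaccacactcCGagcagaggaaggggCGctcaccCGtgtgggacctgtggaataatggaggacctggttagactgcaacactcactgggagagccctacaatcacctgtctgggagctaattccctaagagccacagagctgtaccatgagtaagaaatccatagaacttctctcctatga
The letters CG were counted in each window (the motif reads the same on both strands). The Herc4 window held 20, Kdm5b 17 and Igf2bp2 47, while the regions near Hs3st5, Foxp1 and Zfp668 held 0, 5 and 7. The former windows were placed on start sites and the latter at region centres, so they are not alike in placement. Among the named regions higher in the clones, windows at the region centre held 4 CG at Pgam5, 25 at Klhl24 and 52 at Rims2. Among 32851 RefSeq promoter windows of the same length, 94.6% held at least 1 CG and the median was 7.

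In bulk chromatin, a change in the number of cells that carry a mark and a change in the mark per cell cannot be told apart. The 4 libraries did not order the regions alike. Clones 57 and 58 had a Pearson's r of 0.79 across the 24540 regions, and E14 R1 and E14 R2 one of 0.45. E14 R2 was nearer to the clones, with r of 0.70 and 0.69, than E14 R1, with r of -0.02 and 0.11. These coefficients describe regions within libraries and are not tests. When each library was set beside the in-line totals of the same cells, E14 R1 followed total H3K27me3 (r = 0.69) and ran against total H3K4me3 (r = -0.24). The clones did the opposite, with r of 0.83 and 0.70 with total H3K4me3 and of -0.27 and -0.14 with total H3K27me3. E14 R2 lay between them, at 0.44 with total H3K4me3 and 0.04 with total H3K27me3. In the plots of each E14 replicate against the clones, E14 R1 breaks into separate clouds where E14 R2 forms a single flatter band.

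**Figure D1:**
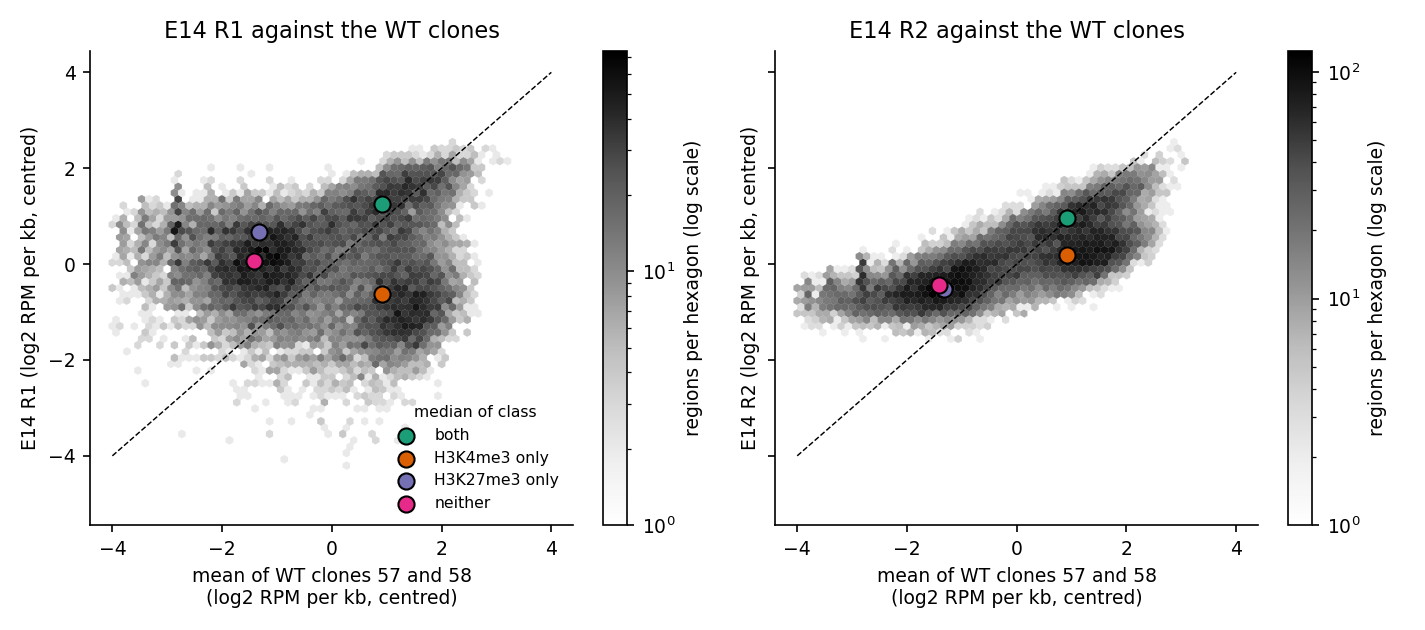
Centred K4-K27 values (log2 RPM per kb) of all 24540 regions, E14 R1 (left) or E14 R2 (right) on the vertical axis against the mean of WT clones 57 and 58 on the horizontal axis, with shading for the number of regions on a log scale, a dashed line of equality and coloured points at the median of each class of regions by overlap with E14 total H3K4me3 and H3K27me3. In E14 R1 the H3K4me3-only class sits far below the line (median -0.63 against 1.07 and 0.77 in the clones), and in E14 R2 it is closer (0.19).

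Whether single regions differed was tested with limma over all 24540 regions. At an adjusted p under 0.05 and a log2 difference over 1, 0 regions (0.0%) were higher and 0 (0.0%) lower in E14, with a smallest adjusted p of 0.0625. Before adjustment, 2828 regions (11.5%) had a p under 0.05 with E14 higher and 5380 (21.9%) with E14 lower. The 2 E14 values lay wholly above the 2 clone values in 9579 regions (39.0%) and wholly below in 8034 (32.7%). An exact permutation test of 2 against 2 libraries cannot go below p = 0.333 for any single region. The count of 0 depended on the setting. It was also 0 in each direction on the values as deposited, after quantile normalisation, with centring or testing outside the chromosome 14 segment only, without the variance trend and by adjusted p alone. In contrast, limma-voom on the recovered reads called 1184 regions higher (4.82%) and 3960 lower (16.1%), and limma without the lowest 25% of regions called 31 higher (0.168%) and 2069 lower (11.2%). After subtraction of IgG-IgG, limma called 972 higher (3.96%) and 1301 lower (5.3%), but with 1 IgG-IgG library per group the same values are subtracted from both members of a group, so their error enters the difference and not the spread. Without clone 57 the counts were 1017 (4.14%) and 448 (1.83%), and without clone 58 they were 2649 (10.8%) and 2313 (9.43%).

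The 2 E14 replicates were then set against the clones separately, with the lone E14 library assumed to vary as the clones do. The E14 replicates were less alike (r = 0.45) than the clones (r = 0.79), so this spread may be too small for E14. With E14 R1, 1172 regions (4.78%) were called higher and 5822 (23.7%) lower. With E14 R2, the counts were 23 (0.0937%) and 2653 (10.8%). These depend on the scaling. E14 R1 gave 209 and 6111 on the values as deposited and 4285 and 6056 after quantile normalisation. On the values as deposited E14 R2 gave 0 and 0 (126 and 1144 at an unadjusted p under 0.05), and after quantile normalisation 1280 and 2071. Both comparisons use the same clone libraries. On centred values, 49.3% of the H3K4me3-only regions described next were called lower with E14 R1, and 22.7% with E14 R2. With E14 R2, 16 of the 23 regions called higher lay in the chromosome 14 segment.

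The differences were then set out by the single marks listed for E14 cells. A region was classed by overlap of at least 1 bp with the E14 total H3K4me3 and total H3K27me3 sets: 2775 regions (11.3%) overlapped both, 11429 (46.6%) H3K4me3 only, 3265 (13.3%) H3K27me3 only and 7071 (28.8%) neither. These totals come from few cells, so a class can miss a mark that is present. Fgf9, classed as H3K4me3 only, had total H3K27me3 values of 0.91 and 0.89 in E14 R1 and R2, close to the 1.01 and 0.94 of Gata4, which was classed as both. Regions with both marks were high in every library, with median centred values of 1.25 in E14 R1, 0.96 in E14 R2, 0.92 in clone 57 and 0.88 in clone 58. Regions with H3K4me3 only had medians of -0.63 and 0.19 in E14 R1 and R2 and of 1.07 and 0.77 in clones 57 and 58. The order was turned round in regions with H3K27me3 only, at 0.66 and -0.51 in E14 and -1.59 and -0.75 in the clones. Regions with neither mark gave 0.07, -0.43, -1.54 and -1.02. In the last 3 classes the E14 medians and the clone medians did not overlap, and in each of them clone 57 stood farthest from E14 R1.

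As differences, the median E14 minus clone value was -0.94 for H3K4me3 only, 1.27 for H3K27me3 only, 1.17 for neither and 0.26 for both marks. On the values as deposited, without centring, the median difference of all 24540 regions was -0.13 in place of 0.27, and that of the class with both marks was -0.14, so the direction of the latter depends on the scaling. The other 3 classes kept their direction under every scaling tried and without any single library, but not their size. The H3K4me3-only value was -0.57 without E14 R1 and -1.32 without E14 R2. For H3K27me3 only it was 0.82 without E14 R1, 0.78 without clone 57 and 1.74 without E14 R2. Of the H3K4me3-only regions, 44.1% were lower at an unadjusted p under 0.05 and 2.14% higher, beside 21.9% and 11.5% of all regions. Of the H3K27me3-only regions, 0.98% were lower and 23.8% higher. Among the 3960 regions that limma-voom called lower in E14, 3846 were H3K4me3-only regions.

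A contrast of classes inside each library is unchanged when a constant is added to that library, as in centring. Quantile normalisation and IgG-IgG subtraction can change it. After quantile normalisation the median E14 minus clone difference was 0.65 for both marks, -0.815 for H3K4me3 only and 0.78 for H3K27me3 only. On centred values these were 0.26, -0.94 and 1.275. In E14 R1, regions with both marks exceeded H3K4me3-only regions by 1.88 log2 units, and in E14 R2 by 0.77. In clone 57 they lay at -0.15 relative to H3K4me3-only regions, and in clone 58 at 0.12. The E14 and clone values did not overlap (mean difference 1.34, exact permutation p = 0.333, the smallest possible). Regions with both marks exceeded H3K27me3-only regions by 0.59 in E14 R1 and 1.47 in E14 R2, compared with 2.52 in clone 57 and 1.63 in clone 58. Thus, on centred values, clone K4-K27 separated regions with both marks best from H3K27me3-only regions, and E14 R1 separated them best from H3K4me3-only regions. Such contrasts also widen with the spread of a library, which was largest in clone 57 (SD 1.84) and smallest in E14 R2 (SD 0.711).

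The same division was seen among the strongest regions of each library. Of the top 10% of regions, those with both marks made up 49.1% in E14 R1 and 46.9% in E14 R2, but 16.5% in clone 57 and 20.6% in clone 58. H3K4me3-only regions made up 14.8% and 32.2% of the top 10% in E14 R1 and R2, and 74.9% and 68.1% in clones 57 and 58. H3K27me3-only regions were 20.9% of the top 10% in E14 R1 and between 3.6% and 11.8% in the other 3 libraries.

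**Figure D2:**
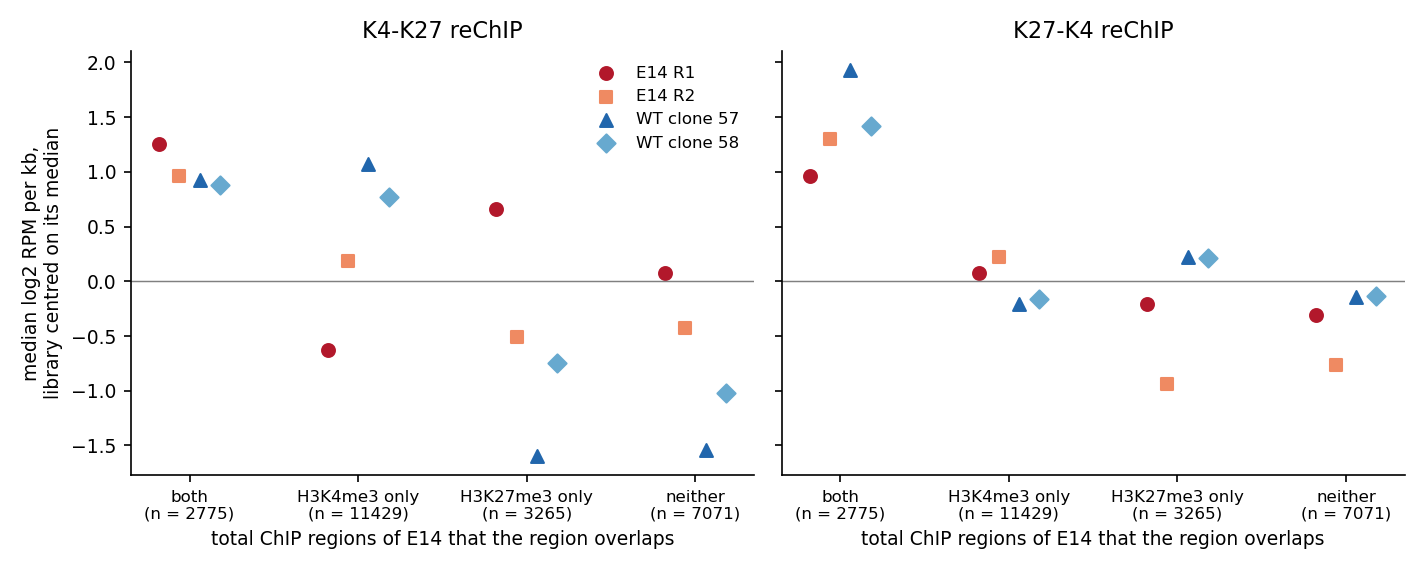
Median centred signal (log2 RPM per kb) of each library in K4-K27 (left) and K27-K4 (right) by class of region, with a symbol for each of E14 R1, E14 R2, clone 57 and clone 58 and a line at the library median of 0. Regions with both marks are high in all 8 libraries, and the H3K4me3-only class lies at -0.63 and 0.19 in E14 and 1.07 and 0.77 in the clones in K4-K27.

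The reverse order of antibodies, K27-K4, was compared in the same 24540 regions from separate libraries of the same cells. There, 358 regions (1.46%) were called higher in E14 and 952 (3.88%) lower. Regions with both marks had medians higher than those of H3K4me3-only regions in each library, by 0.88 and 1.08 in E14 R1 and R2 and by 2.14 and 1.58 in clones 57 and 58. The top 10% of K27-K4 regions held between 45.2% and 50.3% regions with both marks in all 4 libraries. The median E14 minus clone difference was 0.30 for H3K4me3 only, -0.72 for H3K27me3 only, -0.35 for neither and -0.58 for both marks, so for every class the centred value had the opposite sign to that in K4-K27. These signs depend on the centring, since on the values as deposited the K27-K4 medians were 1.20 for H3K4me3 only, 0.18 for H3K27me3 only, 0.55 for neither and 0.32 for both marks, beside 0.75 for all regions. As deposited, 1 region was called in each direction. E14 R1 and R2 K27-K4 had r of 0.29 and 0.41 with total H3K4me3, and the clones r of 0.14 and 0.10. With total H3K27me3 the clone K27-K4 libraries had r of 0.60 and 0.54, against 0.18 and -0.08 in E14. Thus in either order the clone libraries followed the total of the antibody used first more closely than that of the antibody used second. E14 R1 K4-K27 followed the total of its second antibody.

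In the totals themselves, the median difference in H3K4me3-only regions was -0.44 for total H3K4me3 and 0.03 for total H3K27me3, or -0.96 and -0.15 on the values as deposited. After quantile normalisation these were -0.0 and -0.08, so the lower total H3K4me3 depends on the scaling. Total H3K4me3 was called higher in E14 in 348 regions (1.42%) and lower in 203 (0.827%), and total H3K27me3 higher in 163 (0.664%) and lower in 217 (0.884%). No region was called for either total after quantile normalisation. The IgG-IgG reChIP, with 1 library from E14 and 1 from clone 57, differed by a median of -0.07 in H3K4me3-only regions and by 0.36 in regions with neither mark. The part of this background in the K4-K27 difference was not tested beyond subtracting it, which left -0.66 and 0.94 in those classes.

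Promoters stood at one end of the difference. Of all regions, 13085 (53.3%) had a RefSeq start site within 1.5 kb. These had medians of -0.05 and 0.41 in E14 R1 and R2 and of 1.20 and 0.95 in clones 57 and 58. The 11455 regions without a start site had medians of 0.04 and -0.44 in E14 and of -1.48 and -1.02 in the clones. E14 R1 thus hardly told promoters from other regions, while both clones separated them by over 1 log2 unit. The median difference was -0.63 at promoters and 1.12 elsewhere. Within the H3K4me3-only class it was -1.28 at 8640 promoters and 0.32 at 2789 other regions, and within the class with both marks 0.14 at 2175 promoters and 0.82 at 600 other regions. On the values as deposited each of these is lower by the shift given above for all regions, which puts 0.32 and 0.14 below 0.

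When regions were ranked into quintiles by the difference, the quintile most weighted to the clones (differences from -4.03 to -1.22) held 93.7% promoters and 97.5% H3K4me3-only regions. The quintile most weighted to E14 (1.39 to 4.97) held 9.9% promoters, 59.1% regions with neither mark and 29.7% with H3K27me3 only. Median CG content fell from 3.47 per 100 bases in the first quintile to 1.43 in the last, although GC content changed little, from 0.507 to 0.471 of bases. Regions with both marks were most frequent in the middle quintile, at 25.2%. The promoter windows in the first quintile held a median of 23 CG and those in the last 8. These shares describe the same ranking that the quintiles were made from and carry no test.

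**Figure D3:**
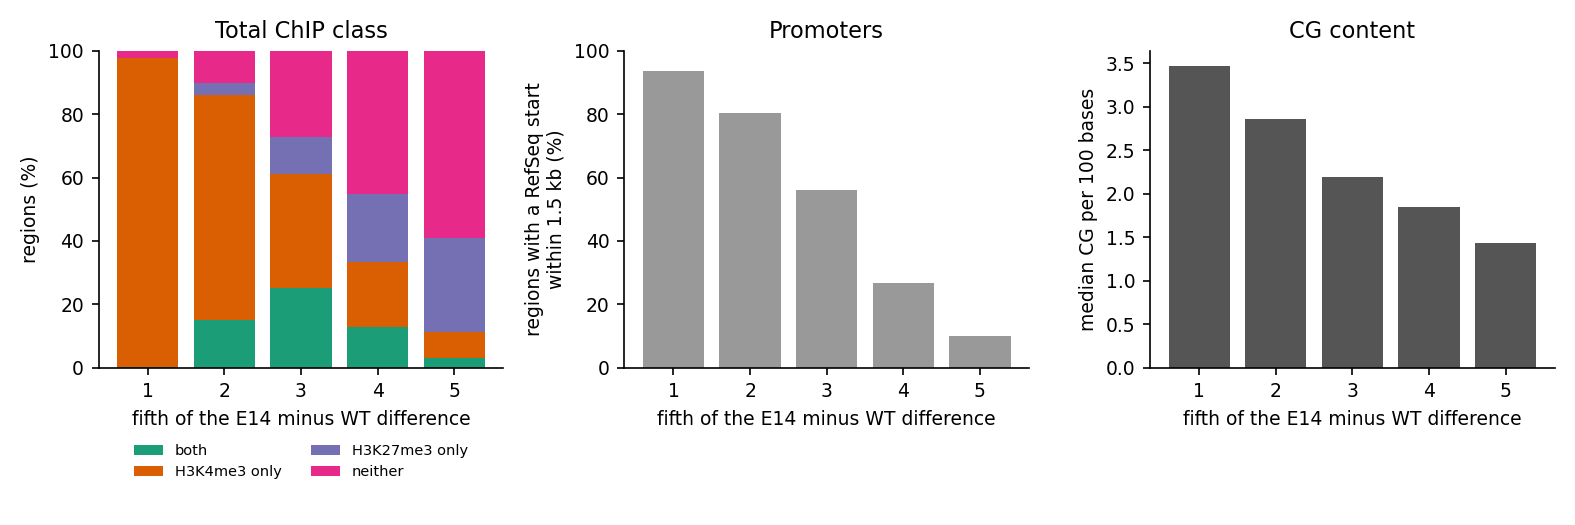
Regions in quintiles of 4908 by E14 minus WT clone difference in K4-K27, from lowest (1) to highest (5): share of each total ChIP class in % (left), share with a RefSeq start site within 1.5 kb in % (middle) and median CG per 100 bases (right). From the first to the last quintile the promoter share drops from 93.7% to 9.9% and CG content from 3.47 to 1.43.

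Read depth was uneven along this ranking. The median region of the last quintile was 1200 bases wide and held 18 reads in E14 R1, 54 in E14 R2, 4 in clone 57 and 8 in clone 58. All 349 regions empty in both clones lay in it. In the first quintile the medians were 19, 243, 215 and 149 reads over 2850 bases. In 4 width classes from the narrowest to the widest, the median difference was 1.28, -0.05, -0.33 and 0.13, of which the second was 0.12 without E14 R1 and the last -0.27 on the values as deposited. The regions highest in E14 thus held few clone reads. With a floor of 3 reads per library in the regions empty in both clones, the median differences for H3K27me3 only and neither were 1.27 and 1.16.

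Regions of the set that also belonged to the WT clone K4-K27 set numbered 15315 (62.4%). Since clone signal decides which regions that set holds, the split by it fixes the direction of the clone values beforehand, and they are given as a description. Their medians were -0.01 and 0.38 in E14 R1 and R2 and 1.05 and 0.83 in clones 57 and 58, with a median difference of -0.46. The other 9225 regions had medians of 0.00 and -0.53 in E14 and -1.84 and -1.25 in the clones, with a median difference of 1.38. E14 R1 thus stood at nearly the same level in both. The 2683 regions of the set that the E14 K27-K4 set did not hold had a median difference of 2.17, with medians of 0.66 and -0.55 in E14 and -2.93 and -1.60 in the clones. They were narrow (median 600 bases), with a median of 1 read in clone 57 and 4 in clone 58. Of them, 1206 were empty in clone 57 and 333 in both clones. With the floor of 3 reads in the latter the median difference was 1.93.

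The 10 regions with the smallest p among those higher in the clones were all promoters. No adjusted p in the 4-library test was under 0.05, and for these 10 it was 0.0625 in each case. At the promoter shared by Herc4, which encodes a HECT-type ubiquitin ligase, and the non-coding 1700120B22Rik (chr10:63243601-63245100), the centred values were -0.08 and 0.74 in E14 R1 and R2 and 3.21 and 3.05 in clones 57 and 58. The difference was -2.80 with a standard error of 0.31. At Kdm5b (chr1:134559601-134563050), which encodes an H3K4 demethylase, the values were -0.70 and -0.18 in E14 and 2.48 and 2.28 in the clones, a difference of -2.82 with a standard error of 0.35. The groups were far apart in both regions. At Klhl24 (chr16:20097301-20098650), a substrate adaptor of a cullin ubiquitin ligase, they were -0.01 and 0.38 against 2.67 and 2.57.

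Etaa1, an activator of the ATR kinase at stalled replication forks, Pgam5, a mitochondrial phosphatase, Ergic2, a protein of the early secretory pathway, and the transcription factor Sp3 showed differences of -2.68, -2.52, -2.06 and -2.57. Rims2, a scaffold of the presynaptic active zone, and Igf2bp2, an RNA-binding protein, stood high in E14 as well, with values of 1.41 and 1.42 at Rims2 and 1.70 and 1.70 at Igf2bp2. In the clones they were higher still, at 3.47 and 2.92 and at 3.20 and 2.94. In K27-K4 the difference was above 0 at all of them except Igf2bp2 (-1.45), Rims2 (-1.17) and the region described next.

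At the promoter of Plagl1, an imprinted zinc-finger gene, and its overlapping imprinted transcript Hymai (chr10:13089601-13092150), all 4 kinds of ChIP were lower in E14. The K4-K27 values were 0.07 and 0.63 in E14 R1 and R2 and 2.82 and 2.55 in clones 57 and 58, a difference of -2.33. In K27-K4 they were 0.90 and 0.63 against 4.01 and 3.12 (difference -2.80, limma adjusted p = 2.07e-05). The difference in total H3K4me3 was -1.62 (adjusted p = 1.66e-06) and that in total H3K27me3 -1.54 (adjusted p = 0.0204), while IgG-IgG differed by 0.40. This region overlapped neither E14 total set. Among these 10 regions it was the only one called lower in E14 in K27-K4, and on the values as deposited that difference was -1.90 (adjusted p = 0.309). The calls in the totals also depend on the scaling, with an adjusted p for total H3K4me3 of 0.292 as deposited and 0.23 after quantile normalisation, and for total H3K27me3 of 0.000329 and 0.0976.

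The regions with the smallest p among those higher in E14 were of another kind. None of the 10 had a start site within 1.5 kb, and 8 were empty in both clones. Near Gm35695 (chr2:178547101-178547400), 8 and 23 reads were counted in E14 R1 and R2 and 0 and 0 in the clones, so that, with the floor of 3 reads in each clone, the mean of the E14 replicates was at least 2.43-fold higher on the values as deposited and E14 R2 alone at least 2.22-fold. The region near Foxp1 held 8 and 22 reads in E14 and that near Hs3st5 10 and 20, giving at least 2.38-fold and 2.54-fold for the mean, and 2.12-fold and 1.93-fold for E14 R2 alone. Regions near Gm11487, 4933433F19Rik, 9330175E14Rik, Zkscan6 and BC048507 held 7 and 22 reads each, at least 2.23-fold for the mean. These counts are at the limit of what this depth can show. The region near Adcyap1 held 11 and 19 reads in E14 and 1 read in each clone. In K27-K4 the region near Foxp1 was called lower in E14 (difference -1.645, limma adjusted p = 0.0341). On the values as deposited that difference was -0.749 (adjusted p = 0.59). The K27-K4 difference was -3.97 near Hs3st5, -1.525 near Gm35695, -1.44 near Adcyap1 and -1.025 near BC048507. Near Gm11487, 4933433F19Rik and 9330175E14Rik it was -0.56, -0.525 and -0.09, and near Zkscan6 0.06. Over the 10 regions the IgG-IgG difference ranged from -2.42 to 2.77, and with E14 R2 alone the adjusted p was 0.166 or more.

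The region near Zfp668 (chr7:127865401-127869300) was the exception in depth, with 58 and 430 reads in E14 R1 and R2 and 16 and 14 in clones 57 and 58. Its centred values were 0.23 and 0.62 in E14 and -2.48 and -2.50 in the clones, a difference of 2.91 with a standard error of 0.68 (limma adjusted p = 0.0643). In K27-K4 the difference was 1.13 there (adjusted p = 0.00863), and 2.03 on the values as deposited (adjusted p = 0.201). IgG-IgG differed by 0.07 and total H3K4me3 by 0.46. It overlapped the E14 total H3K4me3 set only.

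The largest differences between the 2 E14 replicates followed the same class division. E14 R2 exceeded E14 R1 most at the promoters of A930015D03Rik, Ctps2 (a CTP synthase) and Tbcel (a tubulin-binding protein), all H3K4me3-only regions, where E14 R1 held 1, 1 and 0 reads and E14 R2 186, 110 and 96. The clone values at Ctps2 were 1.42 and -0.06, beside -4.39 in E14 R1 and -0.10 in E14 R2. E14 R1 exceeded E14 R2 most in narrow regions near 2010308F09Rik, Gabra5 and 4932441J04Rik, with 23, 17 and 16 reads in E14 R1 and 9 in each in the deeper E14 R2. None of these 6 regions lay in the chromosome 14 segment.

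Promoter regions were then grouped by gene function. The 39 Hox genes, which set segment identity along the body axis, lay in 8 wide regions with medians of 1.96 and 1.17 in E14 R1 and R2 and 0.72 and 1.09 in clones 57 and 58. The median difference was 0.70 (0.32 without E14 R1, 1.09 without E14 R2 and 0.29 on the values as deposited), with 3 of the 8 regions higher at an unadjusted p under 0.05 (11.5% of all regions) and 0 lower (21.9%). With E14 R1 alone 5 of 8 were called higher (4.78% of all regions), and with E14 R2 alone 0 (0.0937%). The region of Hoxb13 had the largest difference (1.65 and 1.01 in E14, -0.32 and 0.33 in the clones, difference 1.32, limma adjusted p = 0.0961), and the Hoxd cluster with Evx2 the smallest (0.34, adjusted p = 0.437). The Hoxd value was -0.06 on the values as deposited and -0.07 without E14 R1.

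Neural transcription factors (56 of 56 genes with a promoter region) had medians of 1.88 and 1.27 in E14 R1 and R2 and 0.99 and 1.24 in clones 57 and 58. Mesoderm and heart factors (35 of 36) had 1.75 and 1.27 against 1.01 and 1.15, and endoderm factors (16 of 17) 1.83 and 1.27 against 1.12 and 1.23. In these lists E14 R2 was close to clone 58, and E14 R1 stood above the other 3 libraries. The median differences were 0.52, 0.49 and 0.46, with E14 R2 alone giving 0.20, 0.14 and 0.20. Their size depends on the scaling, at 0.11, 0.08 and 0.05 on the values as deposited, 0.98, 0.97 and 0.88 after quantile normalisation and 0.81, 0.84 and 0.68 after IgG-IgG subtraction. The E14 values lay above the clone values in 34 of 56, 19 of 35 and 10 of 16 regions, beside 39.0% of all regions, and below them in 1, 1 and 3, beside 32.7%. Before adjustment, p was under 0.05 in 6, 4 and 4 regions with E14 higher and in 0, 1 and 0 with E14 lower (21.9% of all regions). The first 2 counts with E14 higher, 10.7% and 11.4% of their lists, are near the 11.5% of all regions.

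At the extremes of these lists, Tbx5, a factor of heart and forelimb development, had 1.57 and 0.70 in E14 and -0.71 and 0.04 in the clones (difference 1.47, limma adjusted p = 0.104). Dlx2, a forebrain homeobox gene, differed by 1.21 (adjusted p = 0.238), and Sox3 by -0.34 (0.458). Isl1, a LIM-homeobox gene, was the lowest mesodermal region at -0.63 (adjusted p = 0.108). Foxa3 was the lowest endodermal region at -0.50 (adjusted p = 0.287). The highest endodermal region, Gata4, lies in the chromosome 14 segment and is given below.

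Signalling ligands had a median difference of 0.26 over 46 regions and potassium channels 0.17 over 65, and both were below 0 on the values as deposited (-0.15 and -0.24). Nodal, a ligand that patterns the early embryo, was the lowest ligand, with -1.27 and 0.08 in E14 R1 and R2 and 1.73 and 1.18 in clones 57 and 58 (difference -2.05, limma adjusted p = 0.0701). Its region overlapped total H3K4me3 only. Among potassium channels, Kcnip1 was highest (1.84, adjusted p = 0.222) and Kcnh8 lowest (-1.16, adjusted p = 0.0727). Germline genes, many of them silenced by DNA methylation, had a median difference of 0.36 over 25 regions, from 1.91 at Tex101 to -0.99 at Tex14, and of -0.04 on the values as deposited.

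Housekeeping and pluripotency promoters lay on the other side. Ribosomal protein genes (46 of 66 with a region) had medians of -1.54 and -0.29 in E14 R1 and R2 and 1.12 and 0.92 in clones 57 and 58, a median difference of -2.04 (-1.35 without E14 R1 and -1.13 after IgG-IgG subtraction). Of their 45 regions, 44 overlapped H3K4me3 only, 38 were lower at an unadjusted p under 0.05 (84.4%, beside 21.9% of all regions) and 0 higher (11.5% of all), and limma-voom called 36 lower (16.1% of all regions). At the adjusted threshold limma called 0 of the 45 lower with all 4 libraries, 0 after IgG-IgG subtraction, 0 without clone 57 and 6 without clone 58. At Rps29, the lowest, the values were -1.93 and -0.44 in E14 and 1.28 and 1.75 in the clones (difference -2.70, adjusted p = 0.0643). The exception was Rps15 (0.64, adjusted p = 0.243), whose region of 45600 bases also covers Apc2, Pcsk4 and Reep6. In K27-K4 the list's median difference was 0.60, and in IgG-IgG -0.35.

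Pluripotency genes (17 of 25 with a region) had medians of -0.68 and 0.04 in E14 and 1.24 and 1.19 in the clones, a median difference of -1.83, with 11 regions lower at an unadjusted p under 0.05 (64.7%, beside 21.9% of all regions) and 0 higher (11.5% of all). Pou5f1, the core factor of the pluripotency network, had -1.41 and 0.00 in E14 R1 and R2 and 1.72 and 1.31 in clones 57 and 58 (difference -2.22, limma adjusted p = 0.0661). Stat3, the transducer of LIF, had -1.31 and -0.12 against 1.74 and 1.47. Esrrb overlapped both total sets and was level, with 1.80 and 1.35 against 1.23 and 1.32, and Prdm14 stood highest in the list at 0.40 (adjusted p = 0.497), but on the values as deposited their differences were -0.11 and -0.01. Among the 8 pluripotent cell markers, 6 had a region and the median difference was -1.80. Of the markers of other cells, the 5 fibroblast regions had 0.36 and the 8 extraembryonic endoderm regions 0.33, and on the values as deposited these were -0.05 and -0.08.

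Over 39 regions of the genes that encode the Polycomb and H3K4 methylation machinery the median difference was -1.39, or -0.86 after IgG-IgG subtraction and -1.79 on the values as deposited. At an unadjusted p under 0.05, 23 were lower (59.0%, beside 21.9% of all regions) and 2 higher (5.13%, beside 11.5%). The highest was the region of Cbx2 and Cbx8, subunits of Polycomb repressive complex 1, which overlapped both total sets (2.20 and 1.68 in E14, 1.11 and 1.37 in the clones, difference 0.70), and the lowest was Kdm5b. Imprinted genes had -0.34 over 30 regions, from 1.27 at Zim1 to -2.68 at Trappc9, and 0.07 after quantile normalisation. Among 8 regions of CDK inhibitors and tumour suppressors (median -0.33, and 0.13 after quantile normalisation), Cdkn2b was highest at 0.99 (adjusted p = 0.163).

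Cdkn1a, the p21 inhibitor, and Klf4, a pluripotency factor, had differences below 0 in both orders. Cdkn1a had -0.24 and 0.29 in E14 R1 and R2 and 1.97 and 1.82 in clones 57 and 58 (difference -1.87, limma adjusted p = 0.0625), and its K27-K4 difference was -1.35 (adjusted p = 0.0285), or -0.45 on the values as deposited (adjusted p = 0.849). Total H3K27me3 differed by -1.44 there (adjusted p = 0.0347). Klf4 (chr4:55527901-55534800) had 0.42 and 0.91 against 2.23 and 2.14 (difference -1.53, adjusted p = 0.0625), with K27-K4 at -1.31 (adjusted p = 0.0787) and total H3K27me3 at -1.34 (adjusted p = 0.0412). After quantile normalisation the adjusted p for total H3K27me3 was 0.105 at Cdkn1a and 0.11 at Klf4. Both regions overlapped the E14 total H3K4me3 set only.

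**Figure D4:**
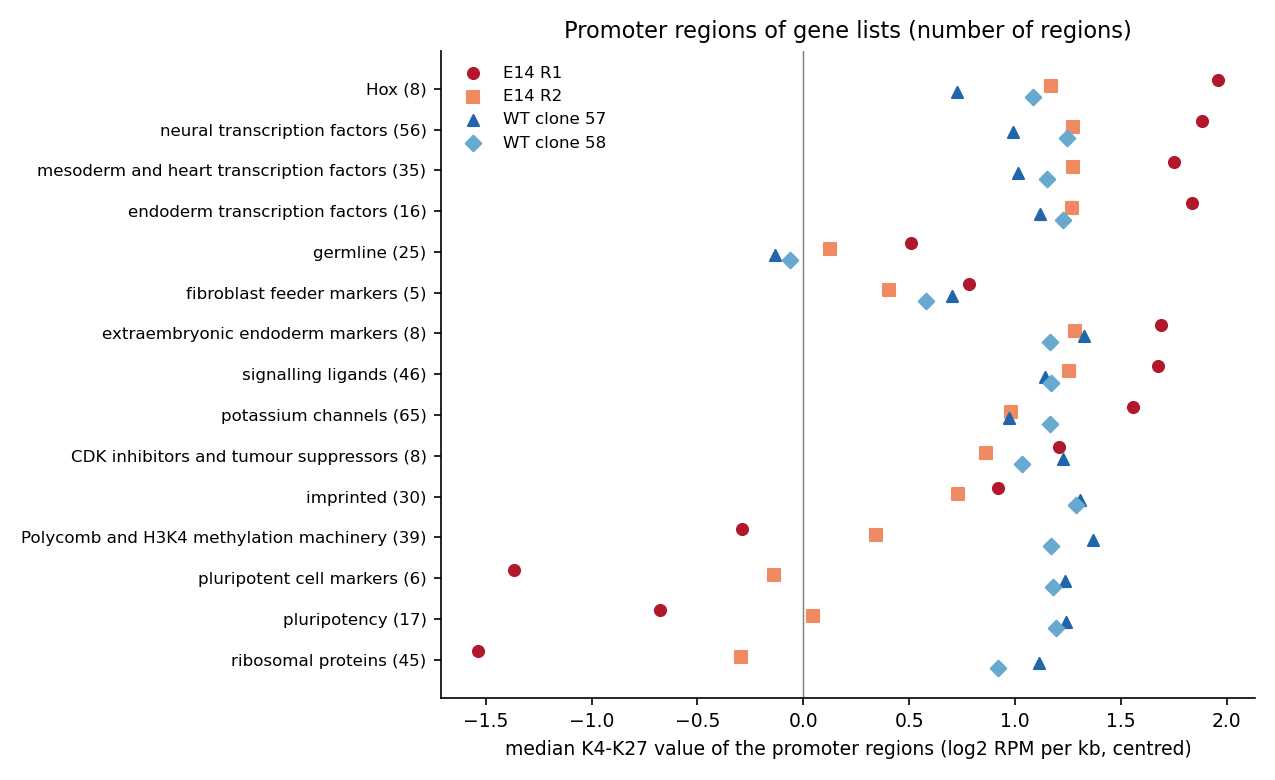
Median centred K4-K27 value (log2 RPM per kb) over the promoter regions of each gene list, with a symbol per library and the number of regions in brackets, ordered by the E14 minus clone difference. Developmental lists lie to the right in all libraries and highest in E14 R1, while ribosomal protein regions lie at -1.54 and -0.29 in E14 and 1.12 and 0.92 in the clones.

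Of 10 loci taken from those the study names, the 8 with a region were compared in the same way. Pou4f1, a sensory neuron factor on chromosome 14 outside the segment (chr14:104463001-104475900), had 1.79 and 1.01 in E14 R1 and R2 and 1.5 and 1.23 in clones 57 and 58 (difference 0.03, limma adjusted p = 0.950). The Pou4f1 difference was 0.42 with E14 R1 alone and -0.36 with E14 R2 alone, and it was negative on the values as deposited. Tlx1, a homeobox gene (chr19:45139501-45161550), had 1.90 and 1.21 against 0.74 and 1.20 (difference 0.58, adjusted p = 0.243). Both overlapped both total sets, and their promoter windows (Pou4f1, chr14:104467950-104468249, minus strand, 57 CG, and Tlx1, chr19:45150465-45150764, plus strand, 16 CG) are shown as examples of that class.
Pou4f1: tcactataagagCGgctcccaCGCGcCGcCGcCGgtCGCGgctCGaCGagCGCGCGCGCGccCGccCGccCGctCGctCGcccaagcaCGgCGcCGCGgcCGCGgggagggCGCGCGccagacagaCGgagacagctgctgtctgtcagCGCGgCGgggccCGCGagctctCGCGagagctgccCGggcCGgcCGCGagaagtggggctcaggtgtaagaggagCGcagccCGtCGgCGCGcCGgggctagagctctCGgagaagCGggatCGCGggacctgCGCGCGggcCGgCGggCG
Tlx1: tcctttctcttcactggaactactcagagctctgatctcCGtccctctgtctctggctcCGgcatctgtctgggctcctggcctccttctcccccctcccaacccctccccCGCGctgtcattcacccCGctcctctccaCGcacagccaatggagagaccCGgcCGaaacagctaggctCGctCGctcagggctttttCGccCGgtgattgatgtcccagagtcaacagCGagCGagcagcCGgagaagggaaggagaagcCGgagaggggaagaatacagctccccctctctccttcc
Dlx3, an ectodermal homeobox gene, had 1.31 and 1.26 against 0.40 and 0.60 (difference 0.78, adjusted p = 0.150), and Meis2 differed by 0.66 (adjusted p = 0.220). Gapdh, a glycolytic enzyme gene whose region overlapped total H3K4me3 only, had -1.77 and -0.73 in E14 and 0.40 and 0.45 in the clones (difference -1.68, adjusted p = 0.101), the groups not overlapping. The library centre thus lay above Gapdh in E14 and below it in the clones. Mcmdc2 differed by 0.77 (adjusted p = 0.319) and Gm6116 by 1.30 (adjusted p = 0.272), the latter with clone values of -2.17 and -0.26 that spread more than the groups did.

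Chromosome 14 between 40 and 90 Mb was set apart because every clone library was low there, so its values are given as a description. Relative to all other regions, the segment's median K4-K27 value was -0.09 in E14 R1, -0.06 in E14 R2, -0.91 in clone 57 and -1.02 in clone 58. The mean difference was 0.89 log2 units. The same difference was 0.95 in K27-K4, 1.03 in total H3K4me3 and 1.04 in total H3K27me3. In IgG-IgG, which uses no antibody to a histone mark, the segment stood at -0.14 in E14 and -1.07 in clone 57. After IgG-IgG was subtracted, the K4-K27 difference was -0.06.

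**Figure D5:**
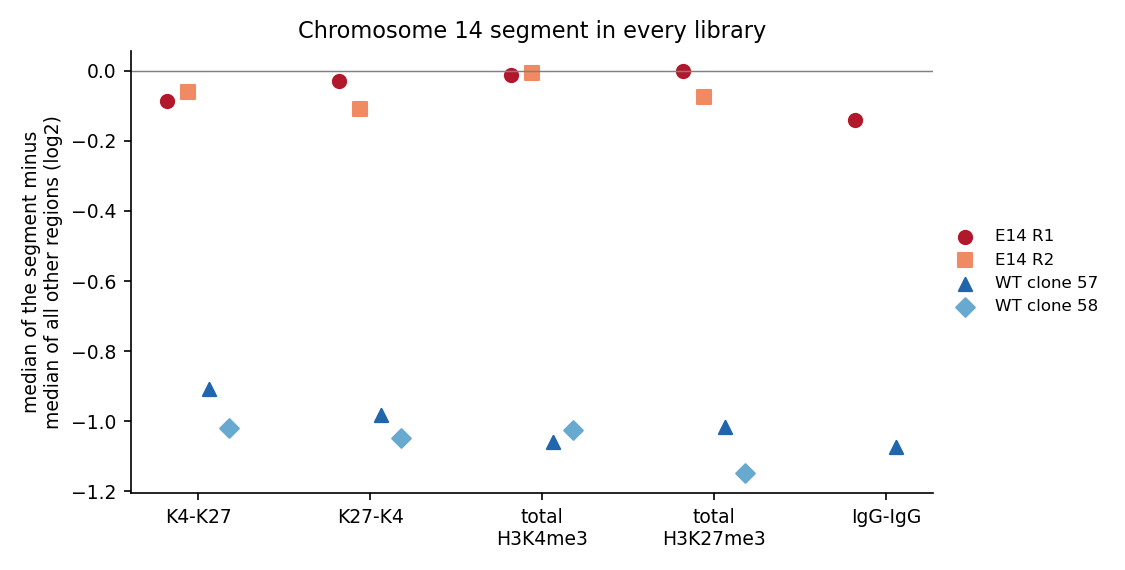
Median centred value of the 507 regions on chromosome 14 from 40 to 90 Mb minus that of the 24033 other regions (log2), for each library of K4-K27, K27-K4, total H3K4me3, total H3K27me3 and IgG-IgG (1 library per group). E14 libraries lie between -0.14 and 0.00 and clone libraries between -1.15 and -0.91 in every assay.

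Within chromosome 14, the median difference in bins of 10 Mb was between -0.27 and 0.36 up to 40 Mb, and between 0.95 and 2.33 from 40 to 90 Mb. Beyond 90 Mb it was between 0.22 and 0.92. IgG-IgG differed by 0.93 to 1.17 in each bin from 40 to 90 Mb and by -0.41 to 0.19 in every other bin. Inside the segment the classes kept their order, with 0.08 in H3K4me3-only, 1.22 in both, 2.16 in H3K27me3-only and 1.99 in neither, each roughly a unit above its value elsewhere (-0.96, 0.24, 1.26 and 1.16). Of the 507 regions, 177 were higher in E14 at an unadjusted p under 0.05 (34.9%), against 2651 of 24033 elsewhere.

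The 5 segment regions with the smallest p were at or near Sall2, Gm4285, Ebf2, Adra1a and Cebpe. Sall2, a zinc-finger factor (chr14:52311001-52318650), had 2.04 and 1.92 in E14 R1 and R2 and 0.22 and -0.48 in clones 57 and 58 (difference 2.11, standard error 0.37, limma adjusted p = 0.0625). Its IgG-IgG difference was 0.22, its K27-K4 difference 1.39 (adjusted p = 0.0202, or 0.215 on the values as deposited) and its total H3K4me3 difference 0.64. The median K4-K27 difference over the segment was 1.20. The Sall2 promoter window (chr14:52316274-52316573, minus strand, 10 CG) is shown as that of the segment region with the smallest p.
Sall2: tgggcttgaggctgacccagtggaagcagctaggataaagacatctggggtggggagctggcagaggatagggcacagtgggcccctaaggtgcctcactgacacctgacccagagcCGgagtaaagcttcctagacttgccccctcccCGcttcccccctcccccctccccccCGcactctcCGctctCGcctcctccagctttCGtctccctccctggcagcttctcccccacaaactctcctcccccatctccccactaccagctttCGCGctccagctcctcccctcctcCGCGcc
Ebf2, a factor of neural and adipose development, had 2.10 and 1.58 against -0.28 and 0.20 (difference 1.88, adjusted p = 0.0631), and IgG-IgG differed by -0.14. Adra1a, an adrenergic receptor, and Cebpe, a myeloid factor, differed by 2.05 and 2.46, with IgG-IgG at 2.70 and 1.12. The region near Gm4285 differed by 2.68 and its IgG-IgG by 3.29. Subtracting IgG-IgG turned the Adra1a and Gm4285 differences to -0.44 and -0.40. Gata4, a master factor of endoderm and heart, had 1.79 and 1.26 in E14 and -0.19 and -0.13 in the clones (difference 1.69, adjusted p = 0.0643, IgG-IgG 0.92), and Fgf9, a growth factor, differed by 1.09 with IgG-IgG at 1.25.

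On the other chromosomes the median K4-K27 difference lay between 0.08 and 0.53, except on the X chromosome, where it was -0.36 over 668 regions. On the values as deposited each is lower by the shift given above for all regions, which turns most of them negative. The X chromosome remains the lowest. X medians were -0.62 and -0.28 in E14 R1 and R2 and 0.24 and 0.08 in clones 57 and 58. H3K4me3-only regions made up 62.1% of X regions, the highest share of any chromosome. Within that class the X difference was -1.24, and those of the other chromosomes lay between -1.15 and -0.83. IgG-IgG differed by -0.08 on the X chromosome, and total H3K4me3 by -0.40.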

How the data were processed

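Per the labels and the study's methods, reads were trimmed with Trim Galore 0.6.6, aligned with BWA 0.7.13 to GRCm38.p6 (mm10) and handled with SAMtools 1.9 and Picard 2.6.0 (versions from the submitters' processing notes). In SeqMonk the authors extended reads of mapping quality over 20 by 200 bp, with duplicates kept. The deposited values are log2 RPM per kb of region, with 0 reads entered as 0.9 reads. The study called peaks in each replicate with EPIC2 against IgG-IgG, but whether the listed regions are those peaks is not stated. Whole reads were recovered for 100% of values (tolerance 0.05 reads), which gave each library's depth. Across 4 E14 tables, 32 columns (8 in each) match no sample used here and were left out.

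Each library was centred on its median over 24540 regions. E14 R1 and R2 were compared with clones 57 and 58 by limma 3.58.1 in R 4.3.3 (eBayes with trend and robust settings), with Benjamini-Hochberg adjustment over all regions and a call at an adjusted p under 0.05 and a log2 difference over 1. The study tested read counts. Here limma on the log2 values that the files hold was the planned main fit, although the recovered reads also allowed a count-based fit, given as limma-voom. Where 1 library stood alone in its group, it was assumed to vary as the other group does. Per the study's methods, replicates came from different passages collected on separate days. Each E14 replicate is 1 passage and each clone 1 line, so p-values measure only the spread between these libraries, and read floors cover counting error only. The fit was tested on simulated data. Other settings were the values as deposited, quantile normalisation, subtraction of IgG-IgG, fewer regions, each library left out, and, chosen after seeing the data, limma-voom on recovered reads and the class, single-replicate and K27-K4 values under other scalings.

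Genes were assigned to a region by a RefSeq start site within 1.5 kb, and otherwise the nearest start site was given with its distance. Named regions are the 10 with the smallest p in each direction among differences over 1 without overlap of groups outside the chromosome 14 segment, the 5 with the smallest p in the segment, the 3 with the largest difference between E14 replicates each way, the highest and lowest of each gene list, and 10 loci taken from those the study names, of which 8 had a region. The regions, gene lists and tests were chosen with earlier results of these data known.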

Additional observations from a re-analysis of the deposited data

How the results depend on the processing

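No paired analysis was possible because the E14 replicates and the clones are separate cultures sequenced in different batches, and nothing links a replicate to a clone. In the K4-K27 test, where 0 regions were called, 972 were higher and 1301 lower in E14 after IgG-IgG was subtracted (1 library per group, whose error the spread does not hold), 31 and 2069 without the lowest 25% of regions, 70 and 3330 in regions shared with the WT clone set (which clone signal decides, and which favours lower calls), and 1184 and 3960 with limma-voom. Leaving out 1 library in turn gave 23 to 2649 higher and 448 to 5822 lower. On the values as deposited, after quantile normalisation, without the trend, with centring outside the segment and by adjusted p alone the counts stayed at 0. With E14 R1 alone, 209 were higher on the values as deposited and 4285 after quantile normalisation. With E14 R2 alone these counts were 0 and 1280, and 0 were lower as deposited.

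In K27-K4, 1 region was called in each direction on the values as deposited and 247 lower after quantile normalisation, with 7 to 753 higher and 182 to 1007 lower when 1 library was left out. The K27-K4 median difference turned to 0.319 for both marks, 0.178 for H3K27me3 only and 0.549 for neither on the values as deposited. In total H3K4me3 the values as deposited gave 80 higher and 15 lower, quantile normalisation 0 and 0, and leaving out 1 library 33 to 2574 and 14 to 733. In total H3K27me3, quantile normalisation gave 0 and 0, the values as deposited 705 lower, and leaving out 1 library 0 to 314 higher and 0 to 403 lower.

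The median difference of regions with both marks was -0.14 as deposited, 0.65 after quantile normalisation and 0.45 after IgG-IgG subtraction, and 0.10 to 0.40 without 1 library. As deposited and after quantile normalisation, regions with neither mark had 0.76 and 0.64, promoters -1.03 and -0.31 and other regions 0.71 and 0.57, the last with 0.78 to 1.32 without 1 library. The second narrowest of 4 width classes had -0.294 to 0.12 without 1 library and the widest class -0.27 as deposited. The chromosome 14 difference in K4-K27 was 0.78 when the segment was narrowed by 5 Mb at each end, 0.74 against chromosome 14 only and -0.061 after IgG-IgG subtraction. In K27-K4 it was 1.10 against chromosome 14 only and -0.044 after subtraction. In total H3K4me3 it was 0.99 when narrowed and -0.083 after subtraction, and in total H3K27me3 0.12 after subtraction.

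As deposited, signalling ligands had -0.15, germline genes -0.043, potassium channels -0.24, fibroblast markers -0.046 and extraembryonic endoderm markers -0.077. Without 1 library, potassium channels had -0.054 to 0.444 and fibroblast markers -0.003 to 0.727, the lowest without E14 R1. After quantile normalisation and IgG-IgG subtraction, imprinted genes had 0.071 and 0.064 and CDK inhibitors 0.13 and 0.12. Among single regions, IgG-IgG subtraction turned Gm4285 to -0.40, Adra1a to -0.44 and 4932441J04Rik to -0.39. Quantile normalisation turned 2010308F09Rik to -0.61, Sox3 to 0.19, Foxa3 to 0.038 and Lama1 to 0.085. The values as deposited turned the Hoxd cluster to -0.063, Prdm14 to -0.005, Pou4f1 to -0.38 and Esrrb to -0.11. Leaving out 1 library gave -0.86 to 2.995 at 2010308F09Rik, -0.159 to 3.338 at 4932441J04Rik (-0.075 without E14 R1), -4.709 to 0.33 at A930015D03Rik, -4.134 to 0.10 at Tbcel, -0.069 to 0.759 at the Hoxd cluster and -0.36 to 0.418 at Pou4f1 (-0.10 without clone 58). The cause of these shifts was not tested. Depth limits the size of the differences in the 349 regions where both clones held 0 reads.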
